A study of Mus musculus with 32 samples.

Results

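The interferon response was followed through 9 genes, *Irf7*, *Isg15*, *Usp18*, *Ifit1*, *Ifit2*, *Ifit3*, *Oasl2*, *Rsad2* and *Bst2*, of 55806 gene identifiers in the 4 deposited count tables. The genes were taken by name, with Ensembl identifiers matched to symbols, and all 9 were present in every table. The series holds 32 RNA-seq libraries of mouse embryonic kidney from animals that express a mutant form of ENL, a chromatin reader encoded by *Mllt1*, against controls with the same Cre driver. In the nephron lineage, controls (ENL-WT) were Six2-TGCtg/+;Enl+/+, and mutants were Six2-TGCtg/+;EnlT1/+ (Six2-ENL-T1) or Six2-TGCtg/+;EnlT3/+ (Six2-ENL-T3). In the stromal lineage, controls were Foxd1GC/+;Enl+/+ and mutants were Foxd1GC/+;EnlT1/+ (Foxd1-ENL-T1). Whole E18.5 kidneys gave 2 libraries each of the 3 Six2 genotypes and 3 each of the 2 Foxd1 genotypes. Cells sorted for the tdTomato Cre reporter gave 3 libraries per genotype (ENL-WT and ENL-T1) from Six2 kidneys at E14.5 and again at E18.5, and 4 per genotype from Foxd1 kidneys at E18.5. All mutants carried 1 mutant and 1 wild-type *Enl* allele, and all controls carried Cre too. The Six2-TGC driver is a bacterial artificial chromosome transgene, the Foxd1GC driver replaces 1 *Foxd1* allele, and a whole kidney also holds cells in which neither driver is active.

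Interferons are secreted proteins that cells release when their sensors detect foreign or misplaced nucleic acid. Type I interferons bind the receptor pair IFNAR1 and IFNAR2, and signaling from it leads to a complex holding STAT2 and IRF9 that binds the interferon-stimulated response element (ISRE) in the promoters of target genes. IRF7 is a transcription factor that amplifies interferon production and is itself induced. ISG15 is a ubiquitin-like modifier, and USP18 removes it and also dampens signaling at the receptor. The IFIT proteins bind viral RNA or restrain its translation, OASL2 is a member of the oligoadenylate synthetase family, RSAD2 (viperin) blocks the replication of viruses, and BST2 (tetherin) holds budding virus particles at the cell surface.

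The promoters are shown because the ISRE was searched for in them. RefSeq promoters of GRCm38.p6 (250 bases upstream of the start site) were in the table for 8 of the 9 genes, all but *Usp18*. The ISRE core, GAAA and again GAAA after any 2 bases, was searched on both strands and found in 5 of these 8 genes, against 3.46% of 27025 genes. The stretches below run 5′ to 3′ on the strand of the gene, with the matches in capitals.
Isg15, chr4:156200855-156200916, minus strand: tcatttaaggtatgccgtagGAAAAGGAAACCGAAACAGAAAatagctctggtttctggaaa
Ifit1, chr19:34640765-34640833, plus strand: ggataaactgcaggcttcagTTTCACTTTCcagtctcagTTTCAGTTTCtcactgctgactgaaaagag
Ifit3, chr19:34583353-34583436, plus strand: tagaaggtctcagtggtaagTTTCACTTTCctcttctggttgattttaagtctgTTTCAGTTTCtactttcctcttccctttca
Rsad2, chr12:26456543-26456592, minus strand: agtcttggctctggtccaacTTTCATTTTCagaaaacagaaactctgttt
Bst2, chr8:71537567-71537622, minus strand: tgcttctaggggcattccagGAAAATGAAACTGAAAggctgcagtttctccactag
*Isg15* had 3 overlapping matches, *Ifit1*, *Ifit3* and *Bst2* had 2 each, and *Rsad2* had 1. These letters were not in the windows of *Irf7*, *Ifit2* and *Oasl2*. The GAS core, an element of interferon gamma targets (TTC and GAA with any 3 bases between), was found in *Ifit2* and *Bst2*, against 8.13% of genes. By the GRCm38 annotation the genes are protein-coding and lie on 7 chromosomes. *Irf7* is at chr7:141262706-141266481, *Isg15* at chr4:156199424-156200818, *Usp18* at chr6:121245906-121270917, *Oasl2* at chr5:114896936-114912234, *Rsad2* at chr12:26442746-26456452 and *Bst2* at chr8:71534255-71537456. *Irf7* shares 1.19% and *Usp18* 4.44% of their exon bases with an overlapping gene, and the others share none. The family members *Ifit1* (chr19:34640871-34650009), *Ifit2* (chr19:34550694-34576419) and *Ifit3* (chr19:34583531-34588731) are neighbours. *Ifit3* shares 51.2% of its 50-base windows with *Ifit3b* (chr19:34607970-34613401), so reads of these copies cannot be assigned with certainty. For *Ifit1* the share is 7.06%, with *Ifit1bl2*.

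Total counts ran from 2557443 to 3508381 in sorted Foxd1 cells, from 67137194 to 79343015 in whole Foxd1 kidneys, from 76510702 to 137888792 in sorted Six2 cells and from 106005614 to 157266455 in whole Six2 kidneys. A count of 3 is worth 0.855 to 1.17 CPM (counts scaled to the library total) in sorted Foxd1 cells and 0.0191 to 0.0447 CPM elsewhere, and these limits cover counting error only. Levels are given in CPM scaled by TMM factors. The quasi-likelihood test of edgeR compared the groups, and Benjamini-Hochberg adjustment ran over every gene tested. To be called between genotypes, a gene needed a 1.5-fold change and an adjusted p below 0.05, and between stages a 2-fold change and one below 0.01. Interactions had no fold limit and used 0.05. No label says that replicates came from separate litters, so p values measure the spread between these libraries. *Mllt1* had 76.5 to 82.3 CPM in the mutant and 89.3 to 104 CPM in the control whole Six2 kidneys, and counts cannot separate its mutant from its wild-type transcript. In sorted Six2 cells its mean was 87.8 CPM in controls and 86.2 CPM in ENL-T1 at E18.5, and 228 and 205 CPM at E14.5. Summed nephron progenitor markers were at 883 to 2049 CPM in sorted Six2 cells at E14.5 and 134 to 201 CPM in sorted Foxd1 cells, and summed stroma markers at 425 to 1702 CPM and 5539 to 7366 CPM.

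In control kidneys the levels of the 9 genes differed widely between them, and *Ifit1* had no counts in 2 of the 3 sorted E14.5 control libraries. Per kilobase of exon, *Bst2* was highest in whole Six2 kidneys (39.0 ± 4.48 CPM per kb, SD, n = 2), in whole Foxd1 kidneys (74.7 ± 10.7, n = 3) and in sorted Foxd1 cells (142 ± 17.5, n = 4). In whole Six2 kidneys *Rsad2* followed with 27.7 ± 0.245 CPM per kb and *Isg15* with 16.3 ± 3.04, while *Usp18* was lowest with 2.01 ± 0.0983. *Oasl2*, *Irf7* and *Ifit1* lay between 3.15 and 4.55 CPM per kb, and *Irf7* and *Ifit1* did not differ beyond their SDs. In sorted Six2 control cells at E18.5 the order was another, with *Ifit3* first at 6.35 ± 0.692 CPM per kb (n = 3). *Bst2* (3.85 ± 1.09) and *Ifit2* (3.39 ± 0.982) came next and overlapped within their SDs, and *Usp18* was again last (0.264 ± 0.113).

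The stromal and nephron lineages held these transcripts at different levels. Sorted at E18.5, control Foxd1 cells had a mean of 129 ± 15.8 CPM (SD, n = 4) of *Bst2* and control Six2 cells 3.47 ± 0.986 CPM (n = 3). *Isg15* had 47.1 ± 10.6 CPM in stroma and 1.48 ± 0.949 CPM in the nephron lineage. *Oasl2* had 28.9 and 1.97 CPM, *Usp18* 10.1 and 0.738 CPM, *Rsad2* 30.2 and 7.31 CPM. The ratio of these means ran from 1.61 for *Ifit2* to 37.1 for *Bst2* in 8 of the 9 genes, and in each of them every stromal library lay above every nephron library, which held for 33.1% of 17370 genes over 1 CPM in either group. *Ifit3* had the opposite order, with 4.25 ± 1.01 CPM in stroma and 11.1 ± 1.21 CPM in the nephron lineage. These values are a description, since the lineages came from separate sequencing runs with different read lengths and depth, which cannot be told apart from lineage. The sexes differed too, as the Y-linked gene *Ddx3y* had 226 to 363 counts in the stromal controls and none in Six2 control replicates 2 and 3. Summed macrophage markers were at 154 to 387 CPM in the sorted stroma controls and 40.3 to 42.8 CPM in the Six2 controls, with none of the 12 at 0, and their part in these levels was not tested.

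**Figure D1:**
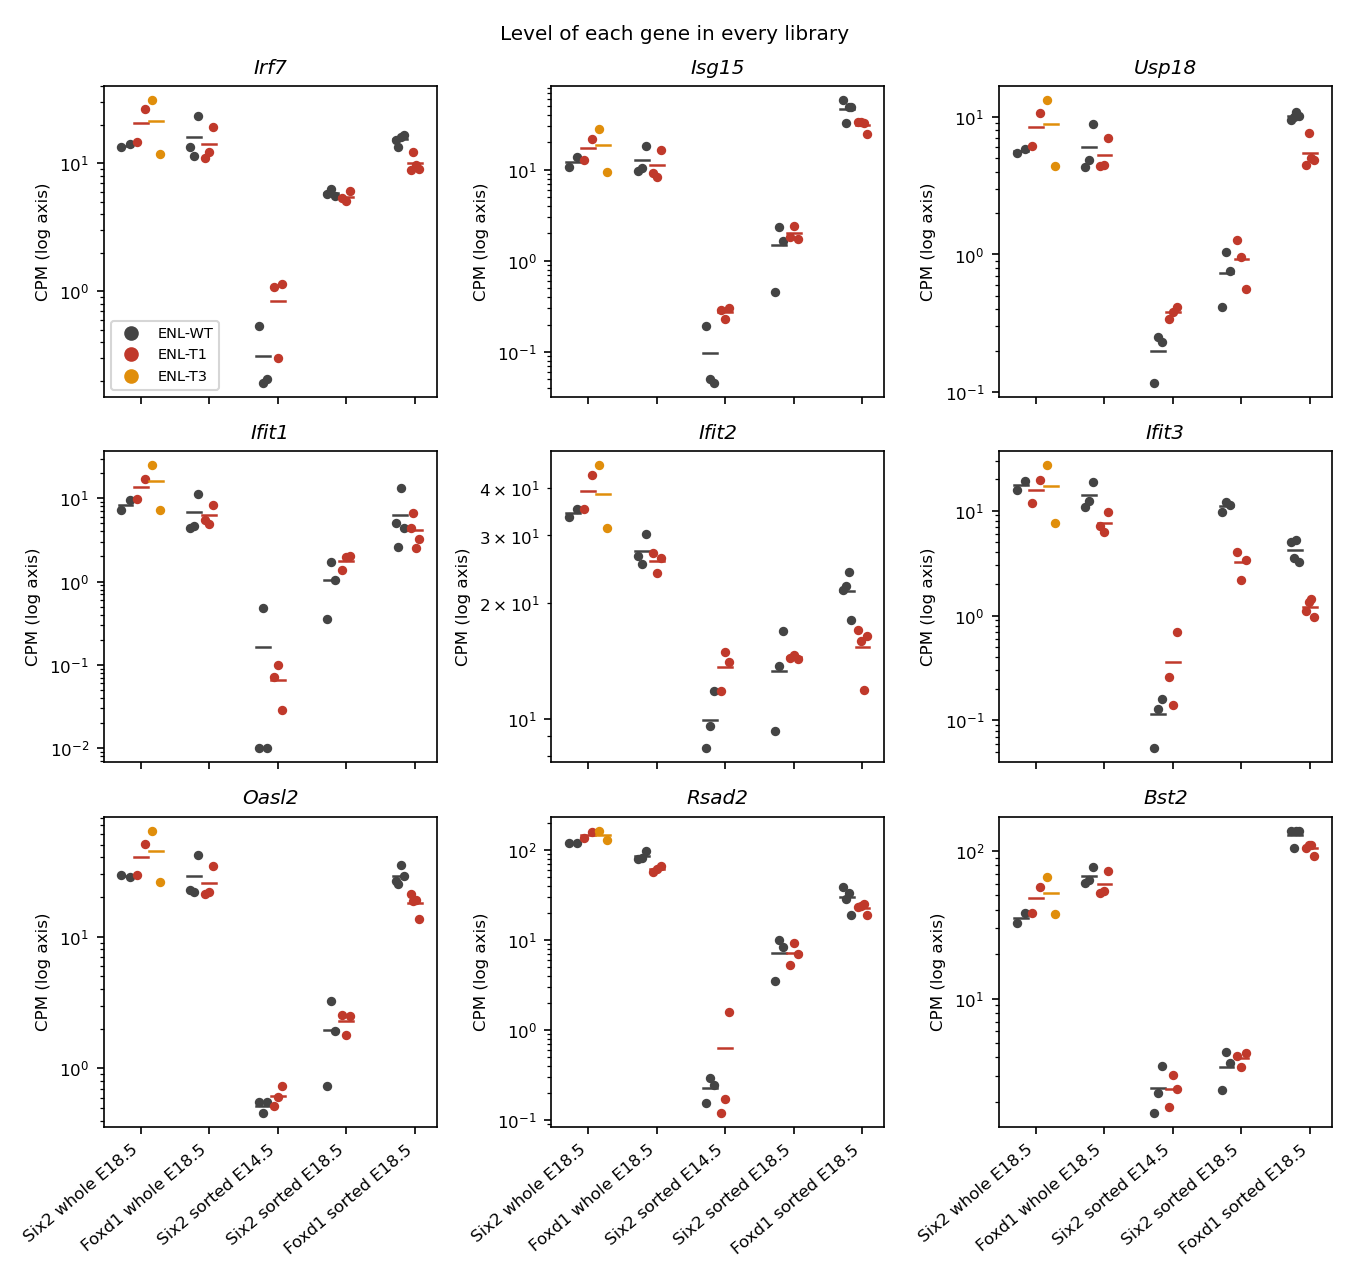
Level of each gene in every library, in CPM on a log axis, with 1 point per library and a bar at the group mean; values under 0.01 are drawn at 0.01. Of the 5 control groups, sorted Six2 cells at E14.5 have the lowest mean for all 9 genes.

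The nephron lineage gained interferon-stimulated transcripts between E14.5 and E18.5. Of the 9 genes, 6 rose in control Six2 cells and none fell, where 24.8% of the 25222 tested genes were called higher and 20.6% lower. *Irf7*, the inducible regulator, had 0.53, 0.193 and 0.206 CPM in the E14.5 controls and 5.72, 6.33 and 5.55 CPM at E18.5. *Isg15* had 0.195, 0.0499 and 0.0459 CPM at E14.5 and 0.455, 2.33 and 1.65 CPM at E18.5. *Usp18* had 0.117, 0.25 and 0.229 CPM at E14.5 and 0.417, 1.04 and 0.752 CPM at E18.5. The stages did not overlap in these 3 genes, with all E18.5 libraries above all E14.5 libraries in 38.0% of tested genes. The log2 fold changes were 4.25 (standard error, SE, 0.45, adjusted p = 8.17e-07) for *Irf7*, 3.92 (SE 0.61, adjusted p = 4.12e-05) for *Isg15* and 1.88 (SE 0.44, adjusted p = 0.00146) for *Usp18*. Among the effectors, *Ifit3* rose most, from 0.0546, 0.128 and 0.161 CPM to 9.76, 12.1 and 11.3 CPM, a 95.4-fold change (log2 6.58, SE 0.52, adjusted p = 2.65e-08). *Rsad2* rose from 0.156, 0.292 and 0.244 CPM to 3.55, 9.95 and 8.42 CPM (log2 4.97, SE 0.79, adjusted p = 5.16e-05). *Oasl2* rose from 0.554, 0.457 and 0.558 CPM to 0.733, 3.23 and 1.93 CPM (log2 1.91, SE 0.41, adjusted p = 0.00071).

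The other 3 genes were not called in the controls. *Ifit2* was already expressed at E14.5, with 8.39, 9.57 and 11.8 CPM, and had 9.27, 13.7 and 16.9 CPM at E18.5 (log2 0.43, SE 0.18, adjusted p = 0.0488). *Bst2* had 1.68, 2.3 and 3.52 CPM and then 2.4, 4.34 and 3.68 CPM (log2 0.47, SE 0.28, adjusted p = 0.142). *Ifit1* had 0, 68 and 0 counts at E14.5 and 28, 135 and 74 counts at E18.5, so a single library set the E14.5 level. Its log2 change of 2.66 (SE 1.05, adjusted p = 0.0345) was called only when E14.5 control replicate 2 was left out, at 9.75 (adjusted p = 1.3e-05), without the low-count filter (2.68) or with a replicate block (3.27).

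Six2-ENL-T1 cells gained these transcripts as well. In the mutant cells 6 of the 9 rose between stages and none fell, against 24.4% of tested genes called higher and 19.8% lower. *Ifit1* was among them (log2 4.75, SE 1.17, adjusted p = 0.00222), *Usp18* was not (log2 1.30, SE 0.42, adjusted p = 0.0131), and *Ifit3* rose by 3.13 on the log2 scale (SE 0.43, adjusted p = 1.39e-05). Without ENL-T1 E14.5 replicate 3, *Ifit1* in the mutants had an adjusted p of 0.0107. The median log2 change over the 9 genes was 2.66 in controls and 2.69 in mutants, and over all tested genes 0.02 and 0.07.

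**Figure D2:**
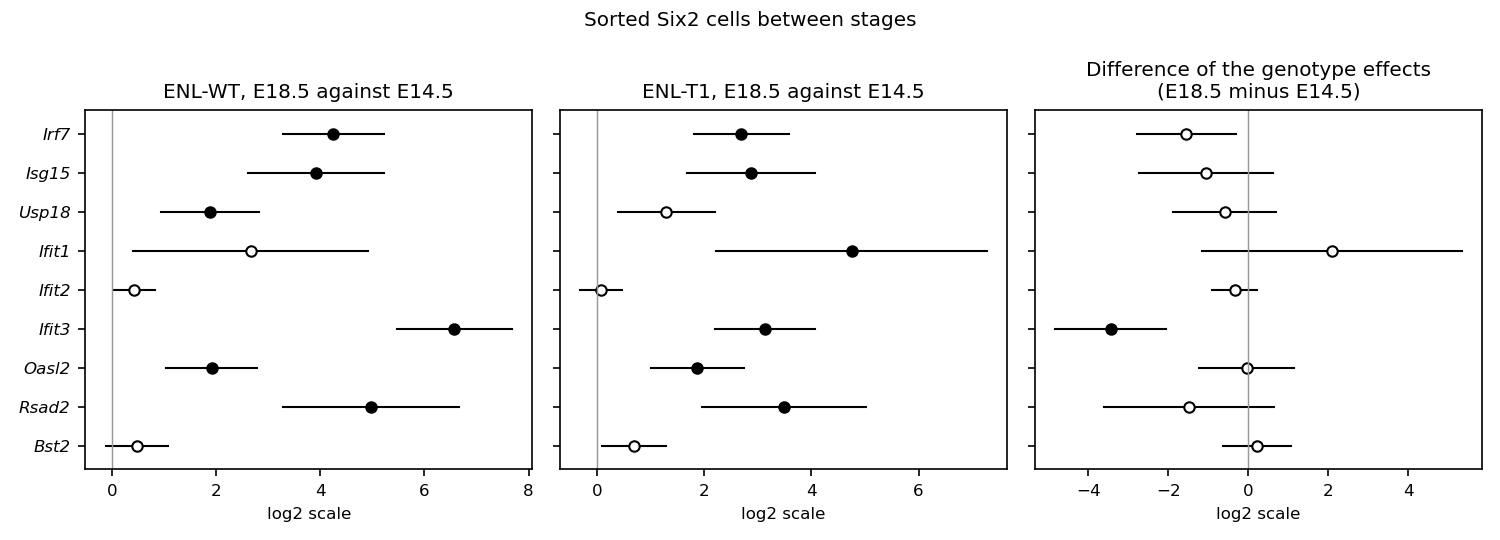
Log2 fold change of each gene from E14.5 to E18.5 in control and ENL-T1 sorted Six2 cells, and the difference of the ENL-T1 effect between stages. Points are estimates, lines are 95% confidence intervals and filled points were called; *Ifit3* alone is filled in the right panel.

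The rest of the pathway was examined by lists of genes. Of 21 interferon genes, 7 had no count in any library and 15 never had more than 3 counts in a library. *Ifnb1*, interferon beta, had 0 counts in all sorted Six2 libraries of E14.5 and in all whole kidneys. At E18.5 the sorted Six2 controls had 42, 48 and 3 counts and the ENL-T1 cells 184, 217 and 138 counts of *Ifnb1*. The ENL-T1 libraries were above the controls (log2 2.45, SE 0.52, adjusted p = 0.00394), and sorted Foxd1 cells had 0 to 4 counts. The receptor genes were expressed throughout, *Ifnar1* at 60.4 to 135 CPM over all 32 libraries and *Ifnar2* at 13.1 to 64.2 CPM. From E14.5 to E18.5 in the controls, *Irf9* rose by 1.08 on the log2 scale (SE 0.11, adjusted p = 5.92e-07). *Stat2* had a log2 change of 0.00 (SE 0.10, adjusted p = 0.995). Of 50 other interferon-stimulated genes, 14 rose and 2 fell, and of 31 tested genes of interferon gamma response and antigen presentation 19 rose and 2 fell. Over all genes 24.8% were called higher and 20.6% lower.

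Several measures moved with stage in the same libraries. E14.5 kidneys were dissociated with trypsin and E18.5 kidneys with collagenase, which cannot be told apart from stage. Early response genes, which tissue handling can induce, summed to 1924 to 3310 CPM in the E14.5 controls and 3599 to 4442 CPM at E18.5, and 6 of 9 rose. Summed macrophage markers were at 23.7 to 118 CPM and 40.3 to 42.8 CPM, with 2 of 12 called higher and 6 lower. Summed proximal tubule markers went from 3.1 to 14.4 CPM to 305 to 400 CPM, with 5 of 5 called higher. The part of dissociation and of cell composition in the rise was not tested. In bulk RNA, more cells of a type and more RNA per cell cannot be told apart.

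Between genotypes in the sorted Six2 cells, no member was called at E14.5, and only *Ifit3* was called at E18.5. At E14.5, *Isg15* had 0.289, 0.229 and 0.302 CPM in ENL-T1 against the control values above, *Usp18* 0.338, 0.385 and 0.417 CPM, and *Irf7* 1.09, 0.303 and 1.14 CPM. All mutant libraries lay above all controls for *Isg15*, *Usp18* and *Ifit2*, as they did for 16.3% of tested genes. The log2 differences were 1.51 for *Isg15* (SE 0.63, adjusted p = 0.174), 0.95 for *Usp18* (SE 0.41, adjusted p = 0.187), 1.46 for *Irf7* (SE 0.58, adjusted p = 0.153) and 1.67 for *Ifit3* (SE 0.68, adjusted p = 0.16). *Ifit2* had 11.8, 14.9 and 14.1 CPM in ENL-T1 (log2 0.47, SE 0.14, adjusted p = 0.0632). *Ifit3* had 0.261, 0.139 and 0.69 CPM in ENL-T1 and *Rsad2* 0.12, 0.172 and 1.62 CPM, with replicate 3 highest in both. The positive *Rsad2* estimate (log2 1.47, SE 0.91, adjusted p = 0.3625) rested on replicate 3, as the other ENL-T1 libraries were not above the controls. Of the 8 genes tested, 7 had a positive estimate (50.6% of all genes) and 5 an unadjusted p under 0.05 (26.1% of all genes), with 0 called, against 4.11% of 22387 genes called higher and 2.28% lower. *Ifit1* failed the filter on low counts, with 10, 12 and 4 counts in ENL-T1.

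At E14.5 some other interferon-stimulated genes did pass the test. In the fixed list 4 of 44 tested genes rose, *Mx1* by 2.00 on the log2 scale (adjusted p = 0.0431), *Ifitm3* by 1.03 (adjusted p = 0.0128), *Ifi35* by 0.97 (adjusted p = 0.0297) and *Lgals3bp* by 0.60 (adjusted p = 0.0425). *Dtx3l* fell by 0.84. Of all tested genes, 4.11% were called higher and 2.28% lower. In the interferon gamma list *Iigp1* rose by 1.19 (adjusted p = 0.00674) and *Ciita*, the regulator of class II genes, fell by 1.76. Summed macrophage markers were at 23.7 to 118 CPM in controls and 50.2 to 102 CPM in ENL-T1, with 0 of 12 called. Stroma markers summed to 425 to 552 CPM in controls and 849 to 1702 CPM in ENL-T1, without overlap, with 7 of 8 called higher and 1 lower, and their part in the members' levels was not tested.

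At E18.5 *Ifit3* had 9.76, 12.1 and 11.3 CPM in control and 4.06, 2.19 and 3.41 CPM in ENL-T1 Six2 cells. The groups did not overlap, with all mutants lower in 17.1% of tested genes, and *Ifit3* fell by 1.77 on the log2 scale, a 3.42-fold change (SE 0.19, adjusted p = 1.82e-05). Across all tested genes 5.54% of 22685 were called lower and 6.14% higher. The near copy *Ifit3b* had 4.6, 4.72 and 4.61 CPM in controls and 1.65, 1.05 and 1.45 CPM in ENL-T1 (log2 -1.74, SE 0.19, adjusted p = 2.43e-05). With the counts of the copies summed, the change was -1.76 (SE 0.17, adjusted p = 7.12e-06). Neither neighbour was called, with *Ifit1* at 0.354, 1.72 and 1.05 CPM against 1.37, 1.98 and 2.01 CPM, and *Ifit2* at 14.4, 14.7 and 14.3 CPM in ENL-T1. Their log2 differences were 0.78 (95% interval -0.11 to 1.68) and 0.13 (-0.24 to 0.49). For *Irf7* the interval was -0.39 to 0.20 and for *Rsad2* -0.65 to 0.63. *Isg15*, *Usp18*, *Oasl2* and *Bst2* had log2 differences from 0.19 to 0.45, with overlapping libraries and adjusted p of 0.52 or more.

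The ENL-T1 effect on *Ifit3* differed between the stages. The difference of the effects (E18.5 minus E14.5) was -3.44 on the log2 scale (SE 0.64, adjusted p = 0.00481), and leaving out each library in turn gave -3.82 to -2.59. This interaction was called lower in 4.22% of genes and higher in 3.94%. *Irf7* had -1.55 (SE 0.58, adjusted p = 0.126) and was called with DESeq2 (-1.58, adjusted p = 0.0387), without the low-count filter and without either ENL-T1 E14.5 replicate 2 or control E14.5 replicate 1. The other 7 genes were not called. The interval for *Oasl2* was -1.23 to 1.15, and for *Rsad2* -3.61 to 0.66.

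Around *Ifit3* at E18.5 the pathway lists held genes called in both directions, more of them higher. Of 48 tested other interferon-stimulated genes, 11 rose and 2 fell, and of 31 of the interferon gamma list 8 rose and 3 fell. Across all tested genes 6.14% were called higher and 5.54% lower. *Slfn2* rose by 2.36 (adjusted p = 9.97e-08), *Gbp5* by 2.38 and *Gbp8* by 2.67 on the log2 scale. *Tgtp1* fell by 1.56, *Tgtp2* by 1.41 and the class I gene *H2-T23* by 0.80. The nucleic acid sensor *Tlr7* rose by 2.12. The macrophage markers summed to 40.3 to 42.8 CPM in controls and 112 to 131 CPM in ENL-T1, with 10 of 12 called higher and none at 0. Proximal tubule markers were at 305 to 400 CPM and 62.1 to 81.7 CPM, with 5 of 5 called lower, and podocyte markers at 2761 to 3233 CPM and 192 to 244 CPM, also 5 of 5 lower. Red cell markers were at 104 to 210.2 CPM in controls and 1551 to 2274 CPM in ENL-T1, with 5 of 6 called higher, and stroma markers at 283 to 515 CPM and 771 to 893 CPM, with 5 of 8 higher and 1 lower. Dendritic cell markers were at 3.49 to 6.03 CPM and 2.14 to 2.93 CPM, with 1 of 5 tested called lower. The part of these cell types in the *Ifit3* difference was not tested.

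**Figure D3:**
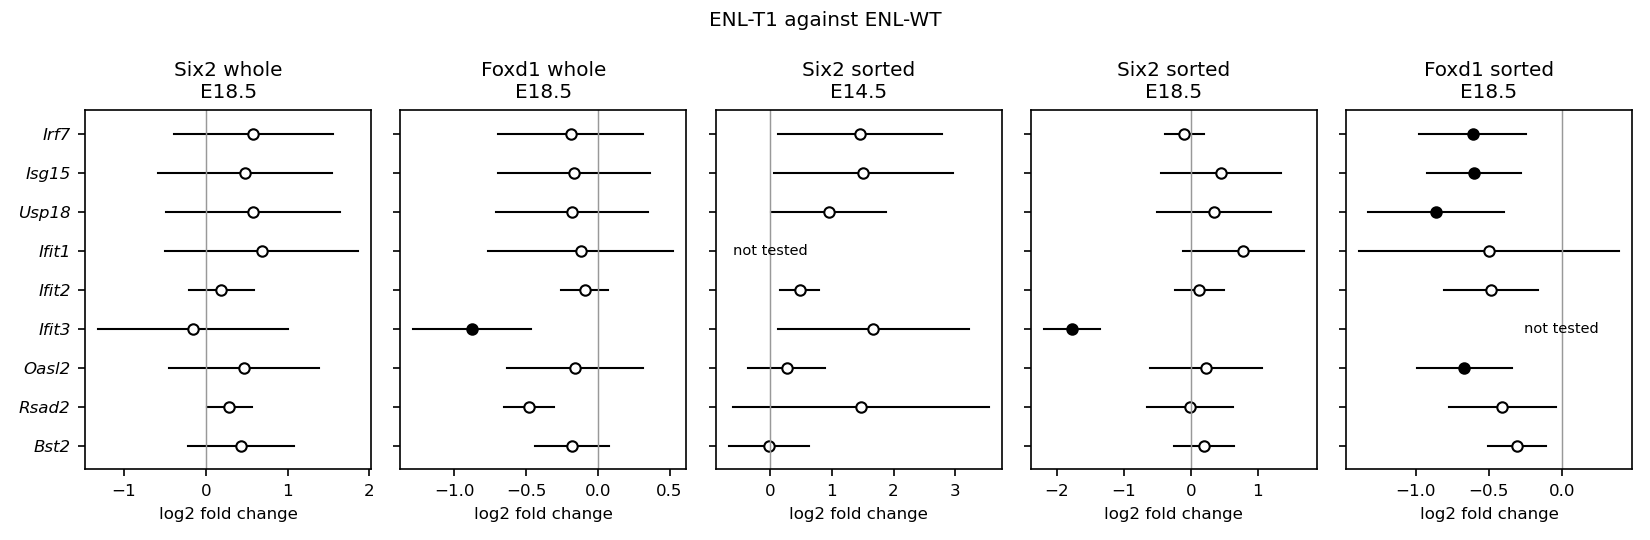
Log2 fold change of ENL-T1 against ENL-WT for each gene in the 5 experiments, with 95% confidence intervals; filled points were called, and each panel has its own scale. *Ifit3* is called in sorted Six2 cells at E18.5 and in whole Foxd1 kidneys, and *Irf7*, *Isg15*, *Usp18* and *Oasl2* in sorted Foxd1 cells.

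In sorted stromal cells some of the response was lower in the mutant. Of the 8 genes tested in sorted Foxd1 cells at E18.5, 4 fell and none rose, where 2.18% of 12717 genes were called lower and 3.63% higher. *Irf7* had 15.3, 13.4, 16.1 and 16.6 CPM in controls and 8.9, 12.3, 9.71 and 9.04 CPM in Foxd1-ENL-T1. *Usp18* had 9.45, 9.92, 10.9 and 10.1 CPM in controls and 4.45, 7.66, 5.04 and 4.84 CPM in mutants. *Oasl2* had 26.4, 25.1, 35 and 28.9 CPM in controls and 21.1, 18.6, 19.1 and 13.6 CPM in mutants. In these 3 genes every mutant library lay below every control, as in 7.34% of tested genes. *Isg15* had 58.3, 32.7, 48.6 and 48.8 CPM in controls and 33.4, 33.6, 32.7 and 24.9 CPM in mutants, where control replicate 2 reached the level of the mutants. The log2 fold changes were -0.61 for *Irf7* (SE 0.17, adjusted p = 0.0292), -0.60 for *Isg15* (SE 0.15, adjusted p = 0.015), -0.86 for *Usp18* (SE 0.22, adjusted p = 0.0166) and -0.67 for *Oasl2* (SE 0.15, adjusted p = 0.00765). These lie close to the threshold of 1.5-fold, with fold changes from 1.52 to 1.82.

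The other effectors had negative estimates too but were not called. *Ifit2* had 21.7, 22.2, 24.1 and 18.1 CPM in controls and 17.1, 16, 11.9 and 16.5 CPM in mutants, without overlap (log2 -0.49, SE 0.15, adjusted p = 0.0502). *Bst2* had 137, 105, 137 and 136 CPM against 104, 110, 109 and 92.3 CPM, a 1.24-fold difference under the fold threshold (log2 -0.31, SE 0.09, adjusted p = 0.0425). *Rsad2* had 39.2, 28.9, 33.8 and 19.2 CPM against 23.7, 24.3, 25.2 and 19 CPM (log2 -0.41, SE 0.18, adjusted p = 0.163). *Ifit1*, with 7 to 33 counts per library, had -0.50 (SE 0.42, adjusted p = 0.523). *Ifit3* had 18, 12, 13 and 9 counts in controls and 3, 4, 4 and 3 counts in mutants, which are at the level of 3 counts, and it failed the filter on low counts. Without that filter it had a log2 change of -1.80 (SE 0.44, adjusted p = 0.00147). Summed with *Ifit3b*, which had 0 to 3 counts in the mutants, it passed the filter with a log2 change of -2.30 (SE 0.37, adjusted p = 0.000331). This sum was chosen after the data had been seen.

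The calls in sorted stroma depended on single libraries. Without control replicate 1, *Usp18* and *Oasl2* were called, and without control replicate 3 only *Usp18*. Without mutant replicate 4 none of the 4 genes was called, with adjusted p of 0.0947 for *Irf7*, 0.073 for *Isg15* and 0.0599 for *Usp18*, and *Oasl2* under the fold threshold at -0.54. *Usp18* held in all but 2 of these 8 fits and *Irf7* in 2. With DESeq2 2 genes were called, *Isg15* and *Oasl2*, while *Irf7* had an adjusted p of 0.102 and *Usp18* 0.0562. With the sorted Six2 libraries in the fit, *Isg15* (adjusted p = 0.222), *Usp18* (0.121) and *Oasl2* (0.198) were not called, and with a replicate block *Isg15* fell under the fold threshold (-0.58). In the same libraries *Stat2* did not overlap between the genotypes but was under the fold threshold (log2 -0.53, SE 0.13, adjusted p = 0.0119), and *Irf9* had -0.31 (SE 0.13, adjusted p = 0.144). *Ifnar1* and *Ifnar2* had -0.13 and 0.09, with adjusted p of 0.481 and 0.611.

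Of 31 tested other interferon-stimulated genes in sorted stroma, 5 fell and 1 rose. Of all tested genes, 2.18% were called lower and 3.63% higher. The falls included *Ms4a4c* (log2 -1.84), *Ifi44* (-1.22) and *Sp100* (-1.14, adjusted p = 0.00051), and *Gbp3* fell by 1.17 in the interferon gamma list. The rises were *Ifi27* (1.13, adjusted p = 6.09e-08) and *Cxcl10*, a chemokine that immune cells follow (0.85, adjusted p = 0.0457). The macrophage list was higher in these mutant libraries, summing to 322 to 449 CPM against 154 to 387 CPM, with 7 of 12 called higher. Dendritic cell markers summed to 14.2 to 17.3 CPM in controls and 6.13 to 12.6 CPM in mutants, without overlap, and the 1 of 8 that passed the low-count filter was called lower, with *Siglech* at 0 in controls. Early response genes were at 5149 to 6397 CPM in mutants and 7539 to 8106 CPM in controls, with 2 of 9 called lower. The part of these 3 lists in the members' difference was not tested.

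Whether the ENL-T1 effect differed between the lineages was tested in 1 fit of the 14 sorted E18.5 libraries. All 9 estimates were negative, that is lower in stroma, and none was called, where 7.63% of 14869 genes were called lower and 8.25% higher. The nearest were *Usp18* with -1.24 (SE 0.46, adjusted p = 0.0757), *Bst2* with -0.52 (SE 0.20, adjusted p = 0.0883) and *Irf7* with -0.54 (SE 0.21, adjusted p = 0.0974). At an unadjusted p under 0.05 the count was 6, where 27.5% of all genes had one. With DESeq2, 1 member was called. For *Ifit3* the difference was -0.05 (95% interval -1.03 to 0.93). Without the Six2 control replicate 2, in which most members were highest among its group, 4 genes were called. The lineages came from separate runs with different read lengths and depth. A run effect that differs between genotypes cannot be told apart from lineage. *Ddx3y* had 226 to 363 counts in all sorted Foxd1 libraries. In sorted Six2 cells at E18.5 it had 10991 (control) and 13159 (ENL-T1) counts in replicate 1, and 0 to 2 in the others. Sex thus differed between the lineages, and its part was not tested.

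**Figure D4:**
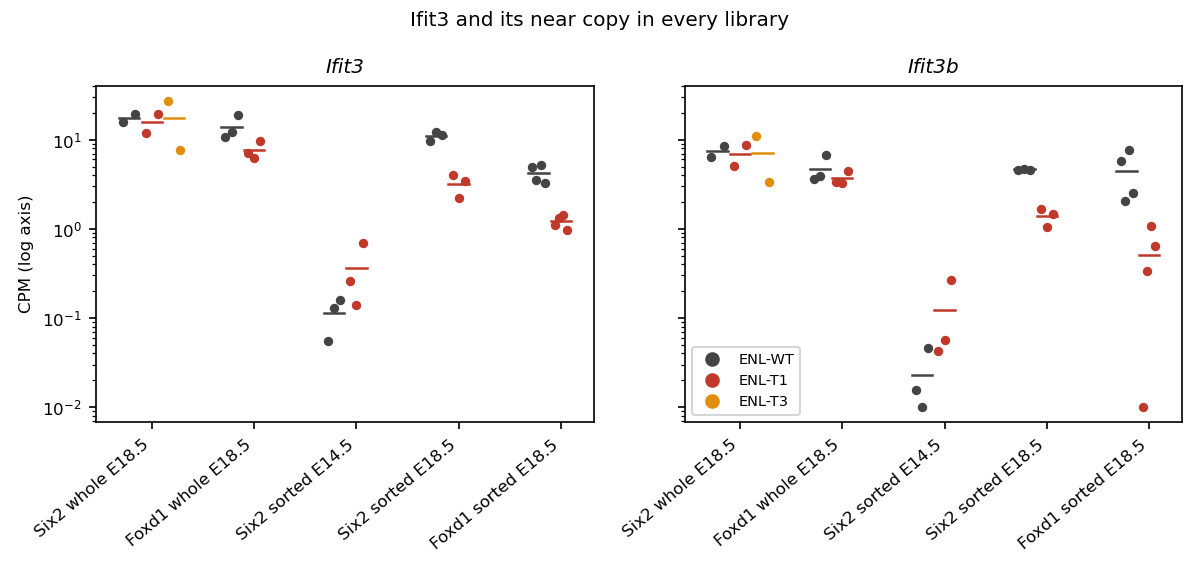
*Ifit3* and its near copy *Ifit3b* in every library, in CPM on a log axis, with 1 point per library and a bar at the group mean; values under 0.01 are drawn at 0.01. ENL-T1 points lie below all controls for both copies in sorted Six2 cells at E18.5 and in sorted Foxd1 cells, and for *Ifit3* alone in whole Foxd1 kidneys.

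In whole Foxd1 kidneys at E18.5, *Ifit3* was again the member that fell. It had 10.8, 12.3 and 18.9 CPM in controls and 7.11, 6.23 and 9.62 CPM in Foxd1-ENL-T1 (log2 -0.87, SE 0.19, adjusted p = 0.00336). The groups did not overlap, as in the 23.5% of tested genes with all mutants lower. Across all tested genes 7.53% of 20145 were called lower and 2.65% higher. Summed with *Ifit3b* the change was -0.73 (adjusted p = 0.00829). In a fit with the whole Six2 kidneys it had the same size, -0.87, with an adjusted p of 0.089. *Rsad2* had 79.3, 82.1 and 98 CPM in controls and 57.1, 61.6 and 67.1 CPM in mutants, a 1.40-fold difference under the fold threshold (log2 -0.48, SE 0.08, adjusted p = 0.000515). The other 7 genes had log2 differences from -0.19 to -0.09, all with overlapping libraries. *Irf7* had 13.5, 11.4 and 23.3 CPM in controls and 10.9, 12.1 and 19.3 CPM in mutants, with a 95% interval of -0.69 to 0.32 on the log2 scale.

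Replicate 3 stood apart in both genotypes of the whole Foxd1 kidneys. It had the highest level of all 9 genes among the controls and of 8 among the mutants, where 30.7% and 27.4% of genes over 1 CPM were highest in these libraries. With both left out, *Ifit3* had -0.80 (adjusted p = 0.000691) and *Rsad2* -0.44 (adjusted p = 0.00113), and 1 member was called, as before. Of the pathway lists, *Cxcl10* rose by 2.42 (adjusted p = 4.96e-06) and *Oasl1* by 0.75, and *Gbp4* fell by 1.09 and *Ifi44* by 0.83. Of 50 other interferon-stimulated genes 2 rose and 3 fell, against 2.65% and 7.53% of all genes. The macrophage list summed to 142 to 157 CPM in controls and 156 to 165 CPM in mutants, with 0 of 12 called, and proximal tubule markers to 1709 to 1906 CPM and 772 to 1003 CPM, with 4 of 5 called lower. Dendritic cell markers summed to 10.2 to 11.6 CPM in controls and 5.94 to 6.86 CPM in mutants, without overlap, with 2 of 5 tested called lower. The part of these lists in the *Ifit3* difference was not tested.

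In whole Six2 kidneys no member was called in Six2-ENL-T1 or Six2-ENL-T3. Across 23931 tested genes, 2.88% passed upward and 4.88% downward with the T1 mutation, against 4.34% and 5.28% with T3. *Irf7* had 13.3 and 14.1 CPM in controls, 14.7 and 26.4 CPM with T1, and 31.1 and 11.9 CPM with T3. *Isg15* had 10.7 and 13.9 CPM, then 12.8 and 21.6 CPM, then 28.2 and 9.48 CPM. *Ifit1* had 7.18 and 9.55 CPM, then 9.91 and 17 CPM, then 24.8 and 7.26 CPM. The controls lay close together, and the libraries of each mutant genotype lay far apart. For *Irf7*, *Usp18*, *Ifit1*, *Ifit2* and *Rsad2* both T1 libraries were above both controls, and with T3 this held for *Rsad2* alone. Over all tested genes it held for 25.4% with T1 and 27.0% with T3. For *Ifit2* the lower T1 library had 35.19 CPM and the higher control 35.18 CPM, which is nearly a tie. The log2 differences ran from -0.15 for *Ifit3* to 0.68 for *Ifit1* in Six2-ENL-T1 and from -0.01 to 0.94 for the same genes in Six2-ENL-T3. The 95% interval for *Ifit1* in Six2-ENL-T3 was -0.25 to 2.12. *Rsad2*, the member with the smallest spread, had 121 and 119 CPM in controls, 135 and 159 CPM with T1, and 165 and 129 CPM with T3, all mutant libraries being above both controls. Its log2 difference was 0.29 in each (SE 0.12, adjusted p = 0.178 and 0.152), and it was the single member with an unadjusted p under 0.05 in either. Between the mutants none was called, with 0.00418% of genes called higher in Six2-ENL-T3 and 0% lower. All 4 listed Y-linked genes had no counts in both Six2-ENL-T3 libraries. Of these, *Ddx3y* had 19243 and 14827 counts in the Six2-ENL-T1 libraries and 15673 and 0 counts in the controls. Sex therefore cannot be told apart from the difference between T3 and T1.

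Six2-ENL-T1 replicate 2 was higher than replicate 1 for all 9 genes, and Six2-ENL-T3 replicate 1 was higher than replicate 2 for all 9. Of genes over 1 CPM, 51.6% and 51.0% were higher in these libraries. *Usp18* was at 6.16 and 10.6 CPM with T1 and at 13.2 and 4.4 CPM with T3, *Oasl2* at 29.4 and 51 CPM and at 63.9 and 25.9 CPM, and *Bst2* at 38 and 57.4 CPM and at 67 and 37.2 CPM. *Ifnar1*, in contrast, was at 132 and 135 CPM and at 133 and 133 CPM. Summed macrophage markers were at 211 and 234 CPM with T1 and 250.4 and 226 CPM with T3, against 155 and 156 CPM in controls, with 8 of 12 called higher in each. Class II histocompatibility genes summed to 43.1 and 48.7 CPM with T1 and 58.1 and 40.2 CPM with T3, against 18.7 and 19.6 CPM in controls. Both sums had the same order as the members within each mutant genotype, and their part in the members' levels was not tested. Without Six2-ENL-T3 replicate 2, *Usp18* (1.24) and *Ifit1* (1.57) were called in Six2-ENL-T3.

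Other genes of the pathway passed the test in whole Six2 kidneys where the members did not. *Cxcl10* rose by 3.90 in Six2-ENL-T1 (adjusted p = 4.82e-05) and by 3.34 in Six2-ENL-T3, *Ccl5* by 3.15 and 3.00, *Ifit1bl1* by 1.38 and 1.53, and *Oasl1* by 1.30 and 1.27. Of 50 other interferon-stimulated genes 4 rose in each genotype and none fell, with medians of 0.35 and 0.37 against -0.01 and 0.00 over all genes. Of 32 genes of the interferon gamma list 5 and 7 rose. The share of all tested genes called higher was 2.88% for the T1 mutant, and 4.88% were called lower. For the T3 mutant these shares were 4.34% and 5.28%.

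**Figure D5:**
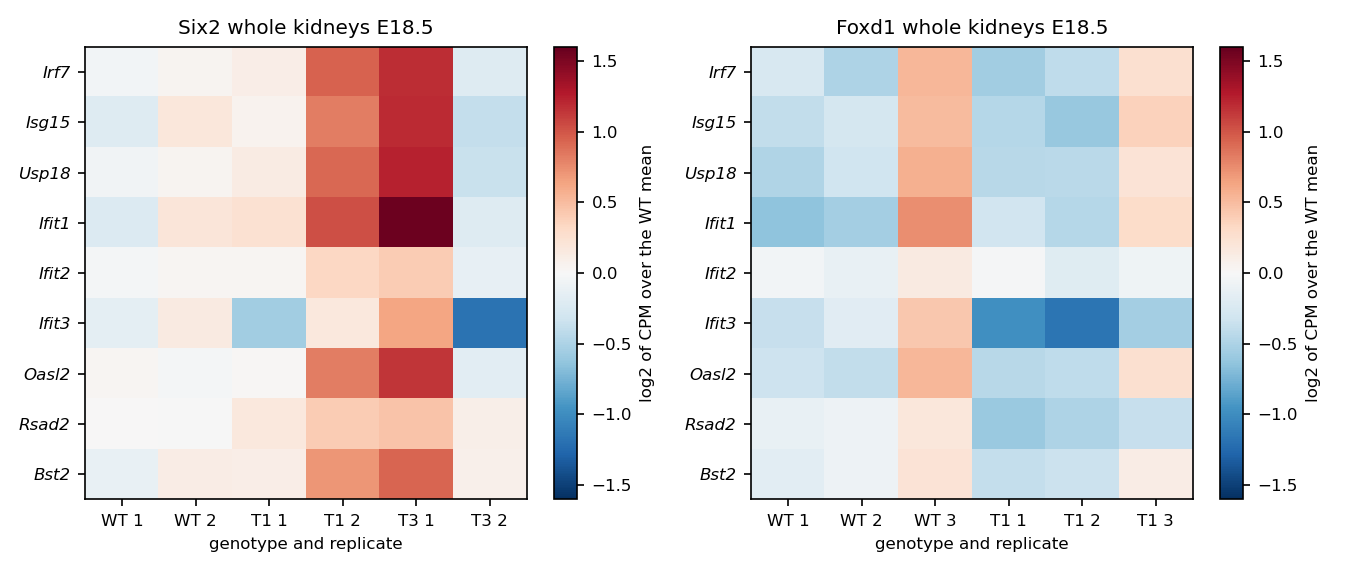
Level of each gene in every whole-kidney library, as the log2 of its CPM over the mean of the controls of the same experiment. Six2-ENL-T1 replicate 2 and Six2-ENL-T3 replicate 1 are red for every gene, and in Foxd1 kidneys replicate 3 of the controls is red for every gene while *Ifit3* and *Rsad2* are blue in all mutant libraries.

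The ENL-T1 effect on whole kidneys was compared between the drivers in 1 fit of 10 libraries. *Rsad2* was called, with a difference of -0.79 on the log2 scale (Foxd1 minus Six2, SE 0.14, adjusted p = 0.00287), and -0.90 to -0.66 with each library left out in turn. Its mutant libraries were above the controls in Six2 kidneys and below them in Foxd1 kidneys. All 9 estimates were negative, from -0.82 to -0.30, and 3.55% of 22826 genes were called lower and 4.82% higher. *Bst2* had -0.63 (SE 0.25, adjusted p = 0.147), and *Ifit3* -0.73 (SE 0.35, adjusted p = 0.228). The drivers were sequenced in separate runs, and an effect of the run that differs between genotypes cannot be told apart from the driver. *Ddx3y* had no counts in the whole Foxd1 libraries, but had counts in both Six2-ENL-T1 libraries and in Six2 control replicate 1. An effect of sex cannot be told apart from the driver either.

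In whole kidneys most members varied more between libraries of a group than nearly all genes. In whole Six2 kidneys the SD of log2 CPM around the group means was larger than in 99% of 16146 genes for 6 of the 9, and it was larger than in 82.4% for *Rsad2*. In whole Foxd1 kidneys it was larger than in 99% of genes for *Irf7*, *Isg15*, *Usp18*, *Ifit1* and *Oasl2*. In sorted Foxd1 cells, where counts are fewest, *Bst2* varied more than 32.6% and *Ifit1* more than 97.6% of genes. Over the 32 libraries, with group means removed, the correlation of each member with the mean of the other 8 ran from 0.37 for *Ifit1* to 0.83 for *Oasl2*. This pools unlike experiments. In sorted Six2 cells at E14.5 the correlation ran from -0.48 for *Isg15* to 0.67 for *Ifit3*. In whole Six2 kidneys it ran from 0.981 for *Oasl2* to 0.9998 for *Ifit2*. There the 2 libraries of a group lie at equal distances on either side of their mean. Few of these deviations are independent, so a high correlation is easily reached, and its size in other genes was not examined. These libraries share depth, handling and annotation within each experiment.

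The genes outside the 9 whose library-to-library deviations were most like the members' mean, of 14496 genes, were *Lgals3bp* (Pearson r 0.85 over 32 libraries), *Eif2ak2* (0.83), *Rnf213* (0.83), *Ifitm3* (0.79), *Trim25* (0.77), *Igtp* (0.76), *Ifi35* (0.75), *Iigp1* (0.75), *Dtx3l* (0.75) and *Ddx58* (0.75). Of these 10, 9 were in the fixed interferon lists and *Rnf213* was not. *Eif2ak2* encodes the RNA-activated kinase PKR, *Ddx58* the RNA sensor RIG-I and *Trim25* a ubiquitin ligase that acts on it. The level filter of this ranking, a mean log2 CPM over -1 in each experiment, removed no gene in the shallow sorted Foxd1 libraries.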

How the data were processed

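RNA was sequenced from whole kidneys (stranded polyA kit) and sorted tdTomato+ cells (ultra-low-input kit). The authors aligned the reads to mm10 with HISAT2, keeping 1 alignment per read, and counted them per gene with HTSeq, unstranded and at any alignment quality. The deposited values are raw counts for 54752 genes (55471 in sorted Foxd1 cells). The annotation release is not given in the sources used here. GENCODE vM21 names matched 55450 of 55806 identifiers. Groups and replicate numbers came from the sample titles.

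The fits used edgeR 4.0.16 under R 4.3.3 (filterByExpr, minimum count 10 and total 15, TMM scaling, quasi-likelihood test, Benjamini-Hochberg adjustment over all tested genes). Genotype comparisons were fitted on their own libraries, the 3 whole Six2 genotypes together, stages on the 12 sorted Six2 libraries. Log2 CPM used a prior count of 2. The fits were tested on simulated counts. The members and gene lists were chosen with earlier results of these data known. Named genes are the 9 members, the called list genes (at most 5 largest per direction), *Stat2*, *Irf9*, *Ifnar1*, *Ifnar2*, the 10 most alike genes and *Ddx3y* as a marker of sex. Another gene that the rule names is not reported here.

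Same-numbered libraries were checked for pairing. Correlations of their deviations from the group means ran from -0.16 to 0.305, and those of different-numbered libraries from -0.316 to 0.195. In sorted Six2 cells at E14.5 they ran from -0.0437 to 0.305 for the same number and from -0.316 to 0.185 for different numbers. With 2 libraries per group, the check cannot show pairing in whole Six2 kidneys. The main fits treated the samples as unpaired. No pair of libraries within a group agreed within sampling noise (chi-square per degree of freedom 1.36 or more). Alternatives were edgeR's exact test, DESeq2 1.42.0, RLE factors, plain library size, dropping the low-count filter, keeping genes over 1 CPM, a replicate block, other libraries in the fit, other fold thresholds and each library left out. Figures used matplotlib 3.10.9.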

Additional observations from a re-analysis of the deposited data

Results flagged for a closer look

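Among 18 sets of 4 libraries (9 genes in the 2 groups of sorted Foxd1 cells), 2 had a library far from the others by Dixon's ratio of gap to range, where chance gives about 1 in 20. *Bst2* had a ratio of 0.954 in the controls, with replicate 2 at 105 CPM and the others at 136 to 137 CPM. *Isg15* had 0.899 in the ENL-T1 cells, with replicate 4 at 24.9 CPM and the others at 32.7 to 33.6 CPM. Without mutant replicate 4, *Isg15* had a log2 fold change of -0.50 and an adjusted p of 0.073.

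The effect of ENL-T1 differed between groups, by the interaction test, for 2 members. For *Ifit3* in sorted Six2 cells the difference between E18.5 and E14.5 was -3.44 on the log2 scale. For *Rsad2* in whole kidneys the difference between the Foxd1 and Six2 drivers was -0.79.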

How the results depend on the processing

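Over 106 comparisons of a member, 1917 values under an alternative were computed, and 1830 kept their direction where called and their side of the threshold, 27 lost the call, 60 gained it and none reversed a called value. Counts of members called between stages stayed at 5 to 7 in each genotype. Without the low-count filter the counts were 3 (T1) and 5 (T3) in whole Six2 kidneys (0 as reported), 2 in sorted Six2 cells at E18.5 (1), 2 for the stage interaction (1), 4 for the lineage interaction of sorted cells (0) and 8 for that of whole kidneys (1). With DESeq2 they were 2 in sorted Foxd1 cells (4), 2 for the stage interaction and 1 for the sorted lineage interaction, which had 3 with library size only. With other libraries in the fit they were 1 in sorted Six2 cells at E14.5 (0), 2 in sorted Foxd1 cells and 0 in whole Foxd1 kidneys (1). A fold change over 2 left 0 in both Foxd1 experiments, and no fold threshold gave 2 in whole Foxd1 kidneys. With the replicate block the count was 1 for the sorted and 5 for the whole-kidney lineage interaction. Whether the replicate numbers pair the samples is not known. Leaving out 1 library gave 0 to 2 members in Six2-ENL-T3, 0 to 1 in sorted Six2 cells at E14.5, 1 to 2 at E18.5, 1 to 5 in sorted Foxd1 cells, 1 to 2 for the stage interaction, 0 to 4 for the sorted and 1 to 2 for the whole-kidney lineage interaction. Where a count moved, the cause was not tested. Depth limited sorted Foxd1 cells, where *Ifit3* failed the low-count filter.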
